A study of Arabidopsis thaliana with 13 samples.

Results

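Transcript levels late in the daily cycle were compared with those of the morning in whole Arabidopsis thaliana seedlings (accession Col-0). The late-cycle window held the 4 arrays of hours 42, 46, 66 and 70, which are hours 18 and 22 modulo 24. The morning window held the 5 arrays of hours 26, 30, 50, 54 and 74, which are hours 2 and 6 modulo 24. Together they were 9 of the 13 arrays of 1 time course, and the other 4, called the evening arrays here (hours 34, 38, 58 and 62), entered no window. The arrays were chosen by their labelled hour alone. All seedlings were of developmental stage 1.0, raised at 22 C under a photoperiod of 12 h in a growth room, on plates of MS agar to which 3% sucrose was added. Every time point was 1 Affymetrix ATH1 array, on which several short probes report each transcript. The windows share genotype and growth conditions, and no treatment is labelled. Neither the event at hour 0 nor the lighting during sampling is given by the labels, so window names refer to the hour modulo 24 and not to light or dark. The labels also leave unsaid whether the seedlings of different hours came from separate plates or how many were pooled.

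The plant circadian clock is a set of transcription factors that repress each other in turn over the day, and through them a large part of the genome is transcribed at set times. Genes of light capture, carbon metabolism, cell expansion and stress protection are among those whose transcripts are known to rise and fall each day. Starch and sucrose metabolism change direction between day and night, since sugars made in the light are stored as starch in the chloroplast and released from it in the dark.

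Leaf and root transcripts were both abundant in these whole seedlings. The leaf transcript LHCB4.1, an antenna protein, had signals of 2422 to 3919 over the 13 arrays, and the root transcript PYK10, a beta-glucosidase, signals of 2524 to 3492. Of 3 tested root markers, 0 were called in the comparison of windows, with differences of -0.18 ± 0.20 for EXPA18, -0.11 ± 0.25 for EXPA7 and -0.01 ± 0.10 for PYK10 (SE, log2). Of 5 tested leaf markers, 1 was called (SBPASE, higher late in the cycle). Over all loci, 2.19% were called higher late in the cycle and 1.8% in the morning. Among 4 flower markers 1 had a named probe set, whose mean signal lay under the filter described next, and 0 of 4 seed storage markers had a named one. In whole seedlings, fewer cells of a type and less RNA per cell cannot be told apart.

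Of the 13647 probe sets tested, 620 differed between the windows in limma's moderated test at an adjusted p under 0.05 (4.54%). Late-cycle arrays were higher for 344 of them (2.52%) and morning arrays for 276 (2.02%). Which side held more calls turned with the scaling: after each array was centred on its median, 251 late and 270 morning calls were made. A probe set was tested if its mean over all arrays lay above the 40th percentile, a signal of 31.8. Differences are late cycle minus morning on the log2 scale, so that negative values mean a higher morning signal. The median difference of all tested probe sets was 0.02. The called differences were mostly below 2-fold: the median was 1.48-fold on the late side, with 32 probe sets at 2-fold or more, and 1.56-fold on the morning side, with 66. The arrays of the windows did not overlap in 332 of the 344 and 256 of the 276 called probe sets, against 9.93% of all tested. Since the replicates of a window are different hours and different days, the p-values measure the scatter of these arrays, part of which is change between the hours of a window, and 9 arrays limit the precision. At an unadjusted p under 0.05 stood 2860 probe sets. The counts depended on single arrays. With hour 66 left out they were 38 late and 46 morning calls, with hour 42 left out 104 and 111, with hour 70 left out 122 and 99, and with hour 46 left out 140 and 139. Leaving out hour 30 gave 128 and 128, and leaving out hour 54 gave 229 and 177. Scatter round the window means (residual SD, log2) was widest at hours 26, 54 and 74, at 0.28, 0.27 and 0.27, and was 0.18 to 0.24 at the other hours. Without hours 26 and 74 together the counts were 438 and 417. The mean hour of the late arrays was 56 and that of the morning arrays 46.8. With linear time in the fit, 263 and 213 were called. With the cycle as a block, on the 8 arrays without hour 74, there were 304 and 282, and 431 of these were among the 620. Without moderation of the variances across probe sets, 56 and 50 were called.

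Gene names came from probe sets with a single gene, which were 161 of the late and 131 of the morning calls. With each locus counted once by its brightest probe set, 159 of 7273 loci were higher late in the cycle (2.19%) and 131 in the morning (1.8%), 3.99% in all. Among the 1059 loci with a symbol other than the locus number, 31 (2.93%) were higher late in the cycle and 30 (2.83%) in the morning. Those 61 genes are described next by what their products are known to do, a grouping made after their values were seen. Of the 31 late genes, 14 were grouped under the plastid, 5 under the cell wall or its precursors, and 12 under other roles. Of the 30 morning genes, 3 were grouped under autophagy, 4 under the cell wall, 1 under the plastid (psbJ) and 22 under other roles. How many of the 1059 genes have each role was not counted, so the size of a group cannot be set against a background share. Where the proteins are located was not tested.

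**Figure D1:**
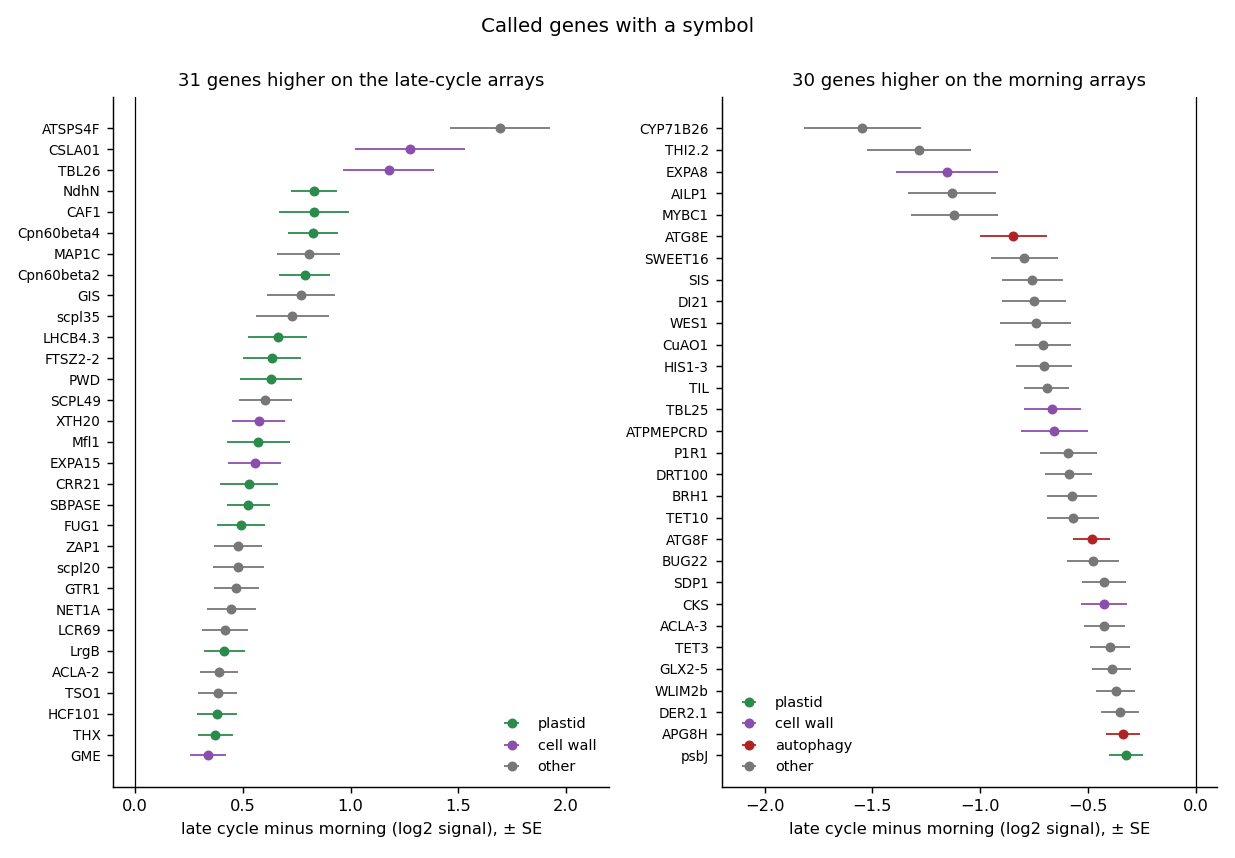
Late-cycle minus morning difference in log2 signal of the 31 (left) and 30 (right) called genes with a symbol; points are differences, bars their standard errors (limma), and colours the role groups. The late side runs from 1.69 for ATSPS4F to 0.34 for GME, and the morning side from -1.55 for CYP71B26 to -0.33 for psbJ.

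The plastid genes of the late side with the smallest p-values encode a subunit of the NDH complex and chaperonin subunits. NdhN (AT5G58260) encodes a subunit of the chloroplast NDH complex, which carries electrons round photosystem I. Its late-cycle signals were 536, 429, 583 and 492 at hours 42, 46, 66 and 70, and its morning signals 267, 278, 334, 275 and 276 at hours 26, 30, 50, 54 and 74. All late arrays lay above all morning arrays, and the difference was 0.83 ± 0.11 (SE, log2; 1.78-fold, adjusted p = 0.00488). Cpn60beta4 (AT1G26230) encodes a chaperonin subunit of the chloroplast that is known to fold NdhH of that complex. It stood at 146, 123, 144 and 137 late in the cycle against 75.4, 79.1, 81.3, 91.4 and 62.7 in the morning, a difference of 0.83 ± 0.12 (adjusted p = 0.00488). Every late signal of Cpn60beta4 exceeded every morning signal. Its relative Cpn60beta2 (AT3G13470), a subunit of the chaperonin that folds the large subunit of Rubisco, had 675, 714, 712 and 705 against 465, 355, 511, 360.4 and 365, again without overlap (0.79 ± 0.12, adjusted p = 0.00701). The third member tested, Cpn60beta3, differed by 0.39 ± 0.13 and was not called (adjusted p = 0.115). The calls of NdhN and Cpn60beta4 were kept in all 21 alternatives, which include each array left out in turn, and that of Cpn60beta2 in all but the fit without moderation.

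**Figure D2:**
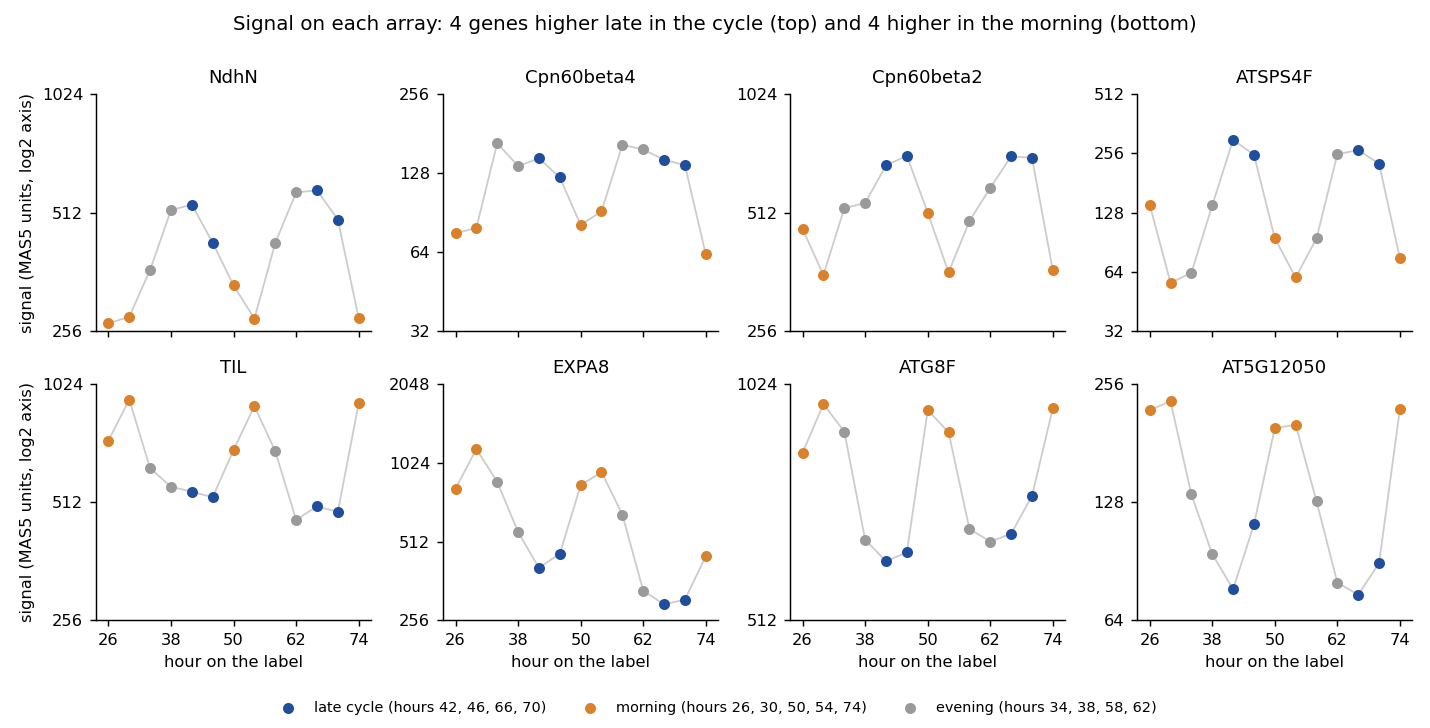
Signal (log2 axis, MAS5 units) at each labelled hour for NdhN, Cpn60beta4, Cpn60beta2 and ATSPS4F (top) and TIL, EXPA8, ATG8F and AT5G12050 (bottom); 1 point is 1 array, coloured by window, with evening arrays in grey. Late-cycle and morning points do not overlap in any panel but that of EXPA8 (449.5 at hour 74 against 459.8 at hour 46), with Cpn60beta2 for example between 675 and 714 late in the cycle and between 355 and 511 in the morning.

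The remaining plastid genes of the late side act in light capture, gene expression, division, transport and iron use. CAF1, a splicing factor for chloroplast introns, differed by 0.83 ± 0.16 (log2, SE). CRR21, which is needed to edit the ndhD transcript of the NDH complex, differed by 0.53 ± 0.14, and FUG1, a translation initiation factor of the chloroplast, by 0.49 ± 0.11. CRR21 was dim, with mean signals of 45.1 late in the cycle and 31.5 in the morning. Its call was lost in 16 of the 20 alternatives that tested it, median centring included. LHCB4.3, a minor antenna protein of photosystem II, had 159, 179, 191 and 207 late in the cycle and 130.1, 92.7, 126, 98.6 and 138 in the morning, so that its lowest late array lay above its highest morning array (0.66 ± 0.14, adjusted p = 0.0239). FTSZ2-2, a tubulin-like protein of the ring that divides chloroplasts, differed by 0.64 ± 0.13. Mfl1, a carrier related to mitochondrial iron transporters, and HCF101, which supplies iron-sulfur clusters to photosystem I, differed by 0.57 ± 0.15 and 0.38 ± 0.09. The thioredoxin THX (0.37 ± 0.08) and LrgB, a transporter of glycolate and glycerate in the chloroplast envelope (0.41 ± 0.10), completed the set with the enzymes SBPASE and PWD given below. Adjusted p-values of these 9 genes ran from 0.0211 (CAF1) to 0.0491 (CRR21). When 1 array was left out, calls among all 14 plastid genes were lost as follows: 11 for hour 66, 10 for hour 70, 9 for hour 42, 8 for hour 46 or hour 30, 4 for hour 54, 3 for hour 74 and 2 for hour 26 or hour 50. With the cycle as a block (8 arrays), CRR21, Mfl1, HCF101 and THX lost their calls, and without moderation 12 of the 14 did. Linear time in the fit ended 4 of the 14 calls, and median centring 2. The sizes moved by at most 1.24-fold on the log2 scale when 1 array was left out.

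Of 27 tested antenna and photosystem genes, many of them plastid-encoded, 1 was called on each side, against 2.19% (late) and 1.8% (morning) of all loci, with 16 positive and 11 negative differences and a median of 0.09, against 0.01 for all loci. The morning call was psbJ (ArthCp036), a small subunit of photosystem II, whose signals were 561, 584, 513 and 612 late in the cycle and 746, 697, 723, 666 and 718 in the morning (-0.33 ± 0.08, adjusted p = 0.0408). That call was lost with any 1 of the 9 arrays left out, with the cycle as a block and without moderation. The plastid-encoded reaction centre gene psbA had the largest positive difference of the list, 0.84 ± 0.39, but was not called (adjusted p = 0.246), and its morning signals spread from 401 at hour 54 to 1624 at hour 26. The antenna gene LHCB4.2 had the largest negative one, -0.52 ± 0.20 (adjusted p = 0.156). Of 13 tested NDH subunits, 1 was called (NdhN). Of the others, 8 were positive and 4 negative, among them ndhH at 0.74 ± 0.19 (adjusted p = 0.0548).

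Carbon metabolism supplied the largest difference among genes with a symbol. ATSPS4F (AT4G10120) encodes a sucrose phosphate synthase, which makes the precursor of sucrose. Its signals were 300.4, 252, 266 and 227 late in the cycle and 141, 56.2, 94.7, 59.8 and 74.8 in the morning. The lowest late value was above the highest morning value, and the difference was 1.69 ± 0.23 (SE, log2; 3.24-fold, adjusted p = 0.00488). The call for ATSPS4F was kept with each array left out in turn and lost without moderation, at an adjusted p of 0.0529. SBPASE (AT3G55800), a Calvin cycle enzyme that regenerates the acceptor of CO2, had 2004, 1921, 2112 and 2222 against 1522, 1391, 1706, 1347 and 1239.7. These did not overlap, at a difference of 0.53 ± 0.10 (adjusted p = 0.0188), and the call was lost without hour 66 or hour 70, and without moderation. The other tested Calvin cycle genes, PRK and RCA, had differences of 0.18 ± 0.13 and 0.15 ± 0.12 and were not called. PWD (AT5G26570), which phosphorylates starch before its breakdown, stood at 368, 331, 387 and 300.0 late in the cycle and 193, 202, 188, 304 and 244 in the morning. The arrays overlapped by hour 54 against hour 70, and the difference was 0.63 ± 0.14 (adjusted p = 0.0337). The call for PWD was lost without any 1 of hours 30, 42, 46, 50, 66 and 70, without moderation, with linear time in the fit and without hours 26 and 74 together. Its evening signals of 629.6, 443, 571 and 544 at hours 34, 38, 58 and 62 were higher than those of both windows. The other starch genes tested, APL3 at 0.47 ± 0.43 and DPE1 at -0.05 ± 0.29, were not called. This left 1 of 3 for starch and 1 of 3 for the Calvin cycle, both on the late side, against 2.19% of all loci. The starch list held 21 loci, of which only 3 had a named probe set.

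The largest late-cycle differences among probe sets with 1 gene belonged mostly to loci that the gene table lists by number only. By the rule used, these were the 12 largest with no overlap and a late mean of at least 100. AT3G28270 came first, with 867, 793, 944 and 636 late in the cycle against 395, 73.7, 317, 88.4 and 369 in the morning. Its morning arrays split by hour, with hours 30 and 54 far below hours 26, 50 and 74, and the difference was 2.02 ± 0.48 (4.06-fold, adjusted p = 0.0379). AT1G06000 had 402, 437, 398 and 399 against 229, 87.6, 181, 75.3 and 219.5, with the same split of the morning arrays (1.51 ± 0.31, adjusted p = 0.023). AT5G42760 differed by 1.37 ± 0.27 and AT2G23910 by 1.53 ± 0.31. The other loci of the 12 were AT5G62210, AT1G60590, AT5G54130, AT1G23205, AT1G27480 and AT1G31690, with differences from 1.15 down to 0.88, beside ATSPS4F and TBL26. When 1 array was left out, 11 of the 12 calls were lost for hour 66, 8 for hour 42 or hour 46, 7 for hour 70, 3 for hour 54 and 2 for hour 30. The call of AT3G28270 was among those lost in each of these 6 cases. Without moderation all 12 were lost, with the cycle as a block 1, AT5G54130, and with linear time in the fit 1, AT3G28270. With a constant of 16 added before the log, AT3G28270 differed 3.75-fold.

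Among the 12 largest of the morning side, chosen by the same rule, AT5G62280 came first. It had 91.3, 175, 85.8, 109 and 62 in the morning and 16.8, 28.7, 3.62 and 18.9 late in the cycle. Every morning array lay above every late array, and the difference was -2.87 ± 0.51 (7.30-fold, adjusted p = 0.0149). Its lowest signal, at hour 66, was far under the filter's mean signal, and with 16 added before the log the fold was 3.64. AT1G23390 had 308, 936, 668, 993 and 370.3 in the morning, highest at hours 30 and 54, and 159, 138, 103 and 157 late in the cycle (-2.10 ± 0.33, adjusted p = 0.00788). AT5G12050 was steadier within each window, at 219, 231, 198, 201 and 221 in the morning against 76.8, 112, 74.4 and 89.5. This gave one of the lowest p-values of the named genes (-1.30 ± 0.12, adjusted p = 0.00184), shared with AT5G03230 (-1.17 ± 0.11). AT1G01240 (-1.41 ± 0.16), AT2G32150 (-1.14 ± 0.13), AT5G12050 and AT5G03230 were called in all 21 alternatives. The other loci without a symbol were AT2G20670 (-1.36), AT3G16800 (-1.27), AT3G12710 (-1.21) and AT1G73480 (-1.15).

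The symbol-bearing genes among those 12 were CYP71B26 and THI2.2. CYP71B26 (AT3G26290), a cytochrome P450, had 93.6, 252, 176, 198 and 255 in the morning and 55.4, 61.9, 50.8 and 89.9 late in the cycle (-1.55 ± 0.27, adjusted p = 0.0149). The windows did not overlap, though the lowest morning value, at hour 26, lay close to the highest late one, at hour 70. THI2.2 (AT5G36910), a thionin, which is a small antimicrobial peptide, had 268, 332, 339, 472 and 249.7 against 108, 172, 87.9 and 192 (-1.28 ± 0.24, adjusted p = 0.0183). When 1 array was left out, 5 of the 12 largest morning calls were lost for hour 66, 3 for hour 42, 2 for hour 46, 70 or 30, and 1 for hour 50 or 54. That of CYP71B26 was lost without hour 66, and that of THI2.2 without hour 66 or 42. Without moderation 8 of the 12 were lost, with the cycle as a block 0, and with linear time in the fit 1, AT2G20670.

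Of 9 tested ATG8 genes of autophagy, 3 were higher in the morning. ATG8 proteins are small ubiquitin-like proteins that are attached to the membrane of the growing autophagosome, which encloses cell contents for breakdown. ATG8F (AT4G16520) had 837, 965, 949, 888 and 954 in the morning and 609, 625, 659.9 and 737 late in the cycle. No late array reached the lowest morning array, and the difference was -0.48 ± 0.09 (1.40-fold, adjusted p = 0.0149). ATG8E (AT2G45170) had 139, 124, 119, 141 and 104 against 74.2, 73.3, 49.8 and 85.3, without overlap (-0.85 ± 0.15, adjusted p = 0.0165). APG8H (AT3G15580), another member, had 383, 380.3, 371, 365 and 415 against 319.9, 309, 295 and 287 (-0.34 ± 0.08, adjusted p = 0.033). Over the family, 3 of 9 tested members were called in the morning and 0 late in the cycle, against 1.8% and 2.19% of all loci. In the family 8 of 9 differences were negative, and the median was -0.34, against 0.01 over all loci. The members not called were ATG8H (-0.58), APG8A (-0.43), ATG8C (-0.25), ATG8G (-0.12), ATG8B (-0.04) and ATG8D (0.12). The family was singled out after its values were seen. Signal of one member on the probe set of another was not tested, here or in the other families. Without hour 66, ATG8F and APG8H lost their calls, and APG8H also lost its own without hours 30, 42, 46 or 70. The call of APG8H was lost too with linear time in the fit, after median centring and without hours 26 and 74 together. ATG8E lost its call only without moderation.

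Several morning genes are known from responses to cold, drought or salt. TIL (AT5G58070), a temperature-induced lipocalin that protects membranes, had 734, 934, 695, 898 and 915 in the morning and 544, 527, 499.6 and 483 late in the cycle. All morning arrays were higher, most of all those of hours 30, 54 and 74, and the difference was -0.69 ± 0.11 (adjusted p = 0.00748), kept as a call in all 21 alternatives. HIS1-3 (AT2G18050), a linker histone variant induced by drought, had 414, 412, 343, 403 and 433 against 265, 231, 306 and 192 (-0.71 ± 0.13, adjusted p = 0.0167). DI21, named for its induction by drought, and SIS, named for its induction by salt, differed by -0.75 ± 0.15 and -0.76 ± 0.14. MYBC1 (AT2G40970), a transcription factor that lowers freezing tolerance, had 62.1, 55.9, 51.0, 49.7 and 76.3 against 17.9, 35.2, 30.8 and 26.6, at the dim end of the tested range (-1.12 ± 0.20, adjusted p = 0.0157). It was the only 1 of 26 tested genes in the list of transcription factors to be called on the morning side. On the late side 0 of that list were called, and over all loci the shares were 1.8% (morning) and 2.19% (late). That list was matched by symbol and does not hold GIS and ZAP1, given below. AT5G47390, which the gene table also lists as KUA1, a MYB-type regulator of leaf cell expansion, differed by -0.58 ± 0.13 (adjusted p = 0.0347). The cold list itself gave 0 calls of 4 tested, with -0.80 ± 0.41 for COR15A, -0.62 ± 0.25 for AT4G30660, -0.06 ± 0.16 for COR47 and 0.01 ± 0.43 for COR15B.

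Genes known from hormone, sugar and lipid metabolism were also among the morning calls. WES1 (AT4G27260), a GH3 enzyme that joins auxin to amino acids, differed by -0.74 ± 0.17, and BRH1, a RING-type protein that responds to brassinosteroids, by -0.57 ± 0.12. SWEET16 (AT3G16690), a sugar carrier of the vacuole membrane, had 106, 128, 109.5, 136 and 96.8 against 77.7, 80.2, 51.2 and 59.2 (-0.80 ± 0.15, adjusted p = 0.0202). It was the 1 call among 10 tested sugar transporters, against 1.8% of all loci called in the morning. SDP1, a lipase that breaks down stored oil, differed by -0.43 ± 0.10, and the copper amine oxidase CuAO1 by -0.71 ± 0.13. AILP1 (AT5G19140) had the brightest of these signals, 847, 1811, 1333, 1994 and 1536 in the morning against 603, 683, 661 and 691 (-1.13 ± 0.20, adjusted p = 0.0157). Its signal at hour 26 was the lowest of the morning but still above all late arrays. The remaining morning genes were P1R1, DRT100, TET10, TET3, BUG22, GLX2-5 (a mitochondrial glyoxalase), WLIM2b (which bundles actin filaments), DER2.1 (a derlin of the endoplasmic reticulum) and ACLA-3, at -0.59 to -0.35. When 1 array was left out, 19 of the 22 morning genes with other roles lost their call for hour 66, 14 for hour 42, 11 for hour 70 or 30, 9 for hour 46, 7 for hour 54, 6 for hour 50, 4 for hour 74 and 3 for hour 26. With the cycle as a block 6 of the 22 lost it, and without moderation 21. Linear time in the fit ended 6 of the 22 calls, and median centring 1.

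The late-cycle genes with other roles were mostly of modest size. MAP1C (AT1G13270), a methionine aminopeptidase, which removes the first residue of new proteins, had 252, 198, 264 and 204 late in the cycle and 102, 135, 129, 171 and 123 in the morning (0.81 ± 0.15, adjusted p = 0.0162), with still higher evening signals of 396, 270.3, 303 and 282. GIS, a zinc finger protein that promotes trichome growth, differed by 0.77 ± 0.16. ZAP1, a WRKY transcription factor, differed by 0.48 ± 0.11 and TSO1, a regulator of cell division, by 0.38 ± 0.09. GTR1, a glucosinolate transporter, NET1A, which binds actin, and the defensin-like LCR69 differed by 0.47 ± 0.11, 0.45 ± 0.11 and 0.42 ± 0.10. Of the serine carboxypeptidase-like enzymes, SCPL49 (0.61 ± 0.12), scpl35 (0.73 ± 0.17) and scpl20 (0.48 ± 0.12) were called, 3 of 13 tested, with 0 called in the morning and a family median of 0.11. Over all loci the shares called were 2.19% (late) and 1.8% (morning), and the median was 0.01. This family too was singled out after its values were seen. With 1 array left out, 11 of the 12 genes of this group, ATSPS4F and ACLA-2 included, lost their call for hour 66 or hour 42, 9 for hour 70 or 30, 7 for hour 46, 6 for hour 54, 5 for hour 50, 4 for hour 74 and 2 for hour 26. With the cycle as a block 5 of the 12 lost it, and without moderation all 12. Linear time in the fit ended 7 of the 12 calls, and median centring 5.

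Cell wall genes stood on both sides, in the expansin and TBL families as different members. Expansins loosen the wall so that cells can grow. EXPA8 (AT2G40610) was higher in the morning, at 814, 1155, 839.6, 943 and 449.5 against 406, 459.8, 295 and 308. The morning array of hour 74 lay just under the late array of hour 46, and the difference was -1.16 ± 0.24 (2.23-fold, adjusted p = 0.0237). EXPA15 (AT2G03090) was higher late in the cycle, at 454, 402, 452 and 519 against 326, 255, 365, 268 and 349.8, without overlap (0.55 ± 0.12, adjusted p = 0.0318). They were the 2 calls among 11 tested expansins, 1 on each side, against 2.19% (late) and 1.8% (morning) of all loci. In the TBL family, many of whose members add acetyl groups to wall polymers, TBL26 (AT4G01080) was higher late in the cycle, at 146, 164, 190.5 and 178 against 80.6, 53.2, 71.2, 60.6 and 126 (1.18 ± 0.21, adjusted p = 0.0155). TBL25 (AT1G01430) was higher in the morning, at 434, 499, 404, 429 and 334 against 247, 323, 222 and 268 (-0.67 ± 0.13, adjusted p = 0.0226). The other 10 tested TBL genes were not called.

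On the late side the wall genes further included CSLA01, a mannan synthase family member (1.27 ± 0.26, with overlapping arrays), XTH20, which cuts and rejoins xyloglucan (0.57 ± 0.12), and GME, which makes GDP-galactose for wall polymers and ascorbate (0.34 ± 0.09). On the morning side they included ATPMEPCRD, a pectin methylesterase (-0.66 ± 0.16), and CKS, which activates the rare pectin sugar KDO (-0.42 ± 0.11). With 1 array left out, 5 of the 5 late wall genes lost their call for hour 66, 4 for hour 70 or 30, 3 for hour 42, 2 for hour 46 or 54 and 1 for hour 50 or 74. In the same way 4 of the 4 morning ones lost it for hour 42, 66 or 70, 2 for hour 46, 30, 50, 54 or 74 and 1 for hour 26. EXPA8 lost its call without hour 42, 66 or 70, and EXPA15 without those or hour 30 or 54. That of EXPA15 was also lost after median centring and with linear time in the fit. TBL26 lost its own without hour 66, and TBL25 without hours 42, 66 or 70 (each alone). With the cycle as a block GME, ATPMEPCRD and CKS lost their calls, and without moderation all 9 wall genes did. GME also lost its call with linear time or median centring, ATPMEPCRD with linear time, and CKS with median centring.

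ATP citrate lyase, which makes acetyl-CoA in the cytosol from citrate, also had members on both sides. ACLA-2 (AT1G60810), one gene of its A subunit, had 216, 204, 196 and 220.2 late in the cycle against 153, 157, 179, 145 and 167 in the morning (0.39 ± 0.09, adjusted p = 0.0331). ACLA-3 (AT1G09430), another gene of the same subunit, had 171, 176, 149 and 175 late in the cycle against 199, 247, 217, 233 and 230.3 in the morning (-0.42 ± 0.09, adjusted p = 0.0297). Neither pair of windows overlapped. ACLA-1 and the B subunit gene ACLB-1 had differences of 0.09 ± 0.09 and -0.01 ± 0.10 and were not called. Both calls were lost without any 1 of hours 30, 42, 46, 54, 66 and 70 and without moderation. That of ACLA-3 was also lost with the cycle as a block. That of ACLA-2 was also lost after median centring, with linear time in the fit and without hours 26 and 74 together. In the tetraspanin family of membrane proteins, TET10 (-0.57 ± 0.12) and TET3 (-0.40 ± 0.09) were higher in the morning, 2 of 8 tested, and 7 of the 8 differences were negative with a median of -0.24. Over all loci 1.8% were called in the morning and the median was 0.01, and this family was singled out after its values were seen.

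**Figure D3:**
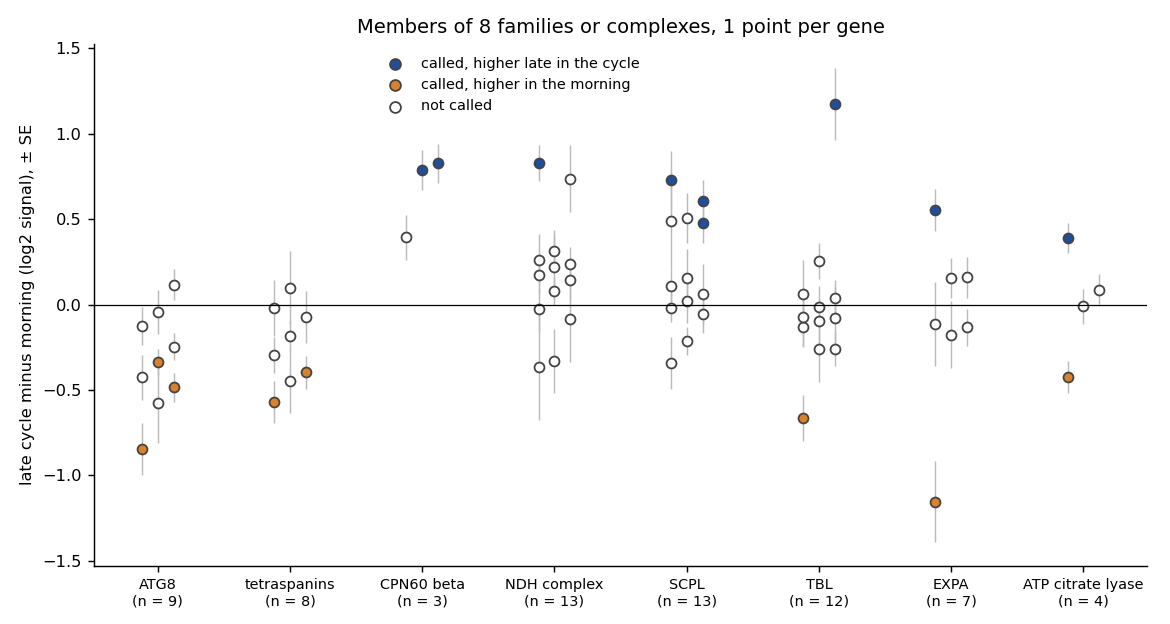
Late-cycle minus morning difference in log2 signal for each tested member of 8 families or complexes; points are genes, bars standard errors (limma), filled points are called. ATG8 and tetraspanin members lie mostly below 0, with medians of -0.34 and -0.24, while TBL, EXPA and ATP citrate lyase each hold 1 call on either side.

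The tested genes of anthocyanin and flavonoid synthesis differed widely between the hours of the morning window. Out of 35 loci listed for this synthesis, probe sets were named for 8, and 6 of these entered the test. The values below cover only these 6 and not the list as a whole. All 6 had positive differences, with a median of 1.17 against 0.01 over all loci, and 0 of 6 were called. DFR (AT5G42800), the reductase at the entry to anthocyanin synthesis, had 185, 611, 302 and 805 late in the cycle. In the morning it had 465, 329 and 834 at hours 26, 50 and 74, and 58.9 and 61.5 at hours 30 and 54. The arrays of hour 2 modulo 24 thus lay within or just above the late range, and those of hour 6 below it. The difference was 0.92 ± 0.76 and was not called (adjusted p = 0.534). UF3GT (AT5G54060), a sugar transferase acting on anthocyanins, had a similar split, with 215, 474, 294 and 612 late in the cycle, 321, 193 and 533 at hour 2 modulo 24, and 47.8 and 60.01 at hour 6 (1.23 ± 0.64, adjusted p = 0.302). UGT78D1 and UGT78D2, which attach sugars to flavonols and anthocyanins, differed by 1.10 ± 0.36 and 0.83 ± 0.31, AT5MAT, a malonyl transferase, by 1.35 ± 0.84, and AT4G14090 by 2.35 ± 1.31. The signal of AT4G14090 was 2.15 at hour 30 against 242 at hour 26, and with 16 added before the log its difference was 1.53. When each of the 6 times of day was its own group and all arrays entered, so that the hours of a window no longer counted as scatter, 6 of 6 were called higher late in the cycle (adjusted p of 0.000178 for UGT78D2 to 0.0149 for AT5MAT). In that fit 855 probe sets (6.27%) were called on the late side and 740 (5.42%) on the morning side, and 612 of the 620 calls of the main comparison were among them.

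**Figure D4:**
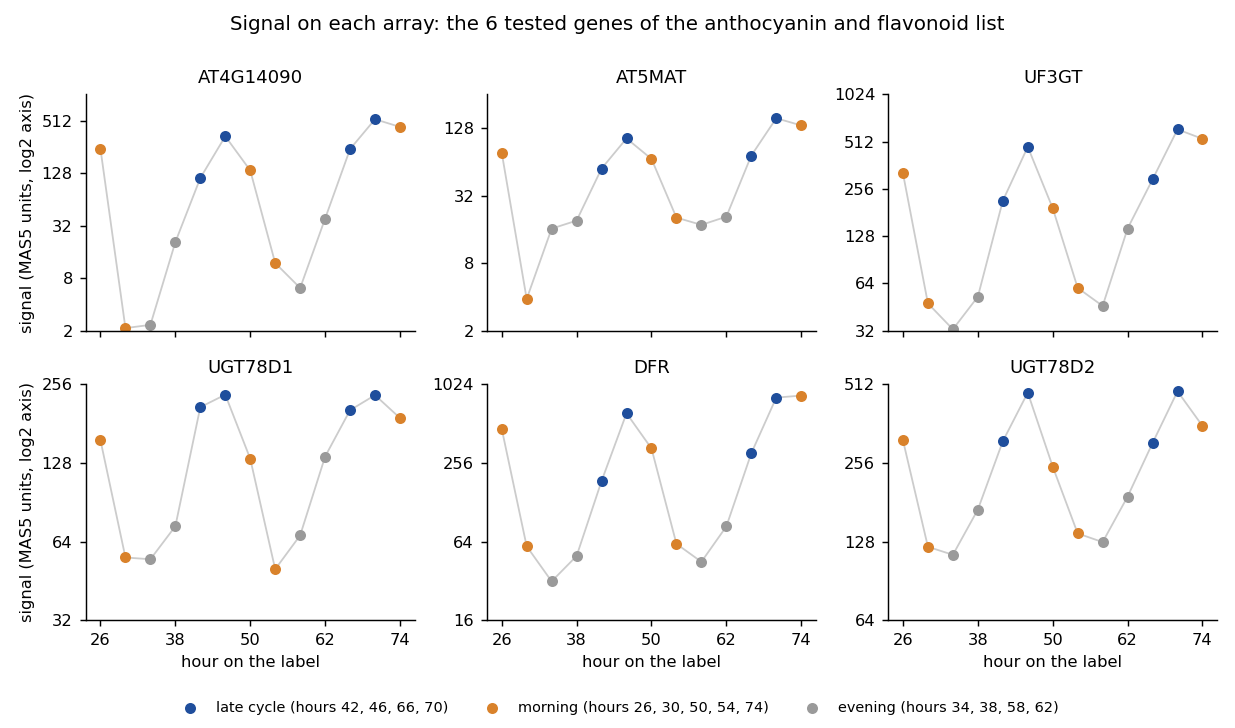
Signal (log2 axis, MAS5 units) at each labelled hour for the 6 tested genes of the anthocyanin and flavonoid list; 1 point is 1 array, coloured by window. Morning points split, with hours 30 and 54 below hours 26, 50 and 74 in every panel, as for DFR at 58.9 and 61.5 against 465, 329 and 834.

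The clock list held 29 loci, of which only 4 had a named probe set, so most of that list was not tested. Of these 4 clock genes 0 were called in the main comparison, and 1, GI, in the fit by time of day. In lists of this size 0 calls are near the overall share, 3.99% of all loci. GI, a clock-associated protein of photoperiodic flowering, differed by -0.75 ± 0.37 (adjusted p = 0.277), with 35.4, 38.9, 53.9 and 43.4 late in the cycle and 38.1, 103, 47.8, 172 and 56.6 in the morning. Its signals were high at hours 30 and 54 and low at hour 2 modulo 24. In the fit by time of day GI was called higher in the morning (adjusted p = 0.0125). XCT differed by 0.28 ± 0.18, TIC by 0.15 ± 0.22 and AT5G52660 by -0.14 ± 0.11. Of 18 listed chlorophyll synthesis genes 4 were tested and 0 were called, with differences of -0.21 for CHLM to 0.19 for GSA1. Of 13 listed genes of light and gibberellin signalling 4 were tested and 0 were called. HYH, a transcription factor of light responses, had the largest difference, 0.74 ± 0.35 (adjusted p = 0.247), and was called in the fit by time of day (adjusted p = 0.0167). The 8 reference genes gave 0 calls, with differences between -0.26 (TUB6) and 0.13 (GAPC2).

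The median differences had the same direction in both cycles. Over the late calls the median difference was 0.58 in the first cycle (hours 26 to 46) and 0.52 in the second (hours 50 to 70), and over the morning calls -0.61 and -0.70. These arrays were also the ones that chose the calls. NdhN differed by 0.81 in the first cycle and 0.82 in the second, ATSPS4F by 1.63 and 1.71, AT5G12050 by -1.28 and -1.29, and EXPA8 by -1.17 and -1.56. In the interaction of window and cycle on 8 arrays, limma called 0 of 13647 probe sets, with a lowest adjusted p of 1.00 and 325 probe sets at an unadjusted p under 0.05. Without moderation it called 0, with 491 at an unadjusted p under 0.05. This does not show that the cycles were alike.

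Within a window the hours were not equal. Of the 276 morning calls, 214 were higher at hour 6 modulo 24 than at hour 2, against 54.5% of all tested probe sets, and of the 344 late calls 250 were lower at hour 6 than at hour 2. The late calls were higher at hour 22 than at hour 18 in 132 cases and lower in 212, against 49.4% of all tested that were higher. Among the genes with the largest differences, AT1G23390 stood at 936 and 993 at hours 30 and 54 against 308, 668 and 370.3 at hours 26, 50 and 74. AT1G06000, on the late side, stood at 87.6 and 75.3 at hours 30 and 54 against 229, 181 and 219.5.

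The evening arrays, which entered the filter on mean signal but not the test, lay mostly between the windows. For the late calls their mean was between the windows in 221 of 344 probe sets (64.2%), above the late window in 83 (24.1%) and below the morning window in 40 (11.6%). For the morning calls it was between in 222 of 276 (80.4%), above in 17 (6.16%) and below in 37 (13.4%). Over all tested probe sets the shares were 36.2% between, 33.6% above and 30.2% below. Where 2 means lie close together, few values fit between them, so the shares of all probe sets and of those called for a wide gap are not alike in kind. Among the late genes, Cpn60beta4 (166, 136, 164 and 158), PWD and MAP1C had evening means above both windows, while the evening signals of SBPASE ran from 1235 to 1872. Among the morning genes, AT5G12050 stood at 134 and 129 at hours 34 and 58, between the windows, and at 94.4 and 79.8 at hours 38 and 62, within the late range.

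**Figure D5:**
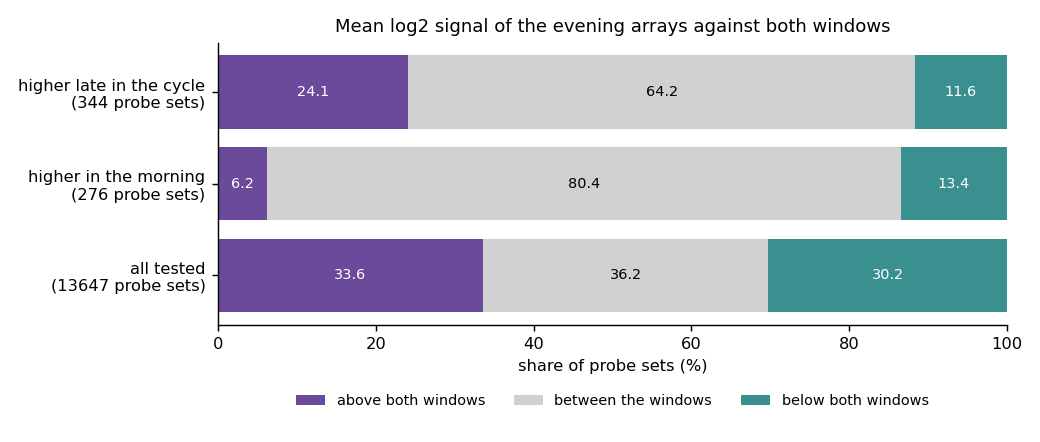
Share of probe sets (%) whose mean log2 signal on the 4 evening arrays lay above both windows, between them or below both, for the 344 late calls, the 276 morning calls and all 13647 tested. Between the windows lay 64.2%, 80.4% and 36.2%.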

How the data were processed

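Total RNA of 13 seedling samples was hybridised to ATH1 arrays. Each probe set has 1 deposited intensity per array, on a linear scale. The submitters' processing notes name MAS5, without a version. Other upstream steps and the build behind the array are not given in the sources used here. By array, the mean without extreme probe sets was 100.01, as after scaling to 1 target, which hides changes in total RNA and leaves dim probe sets noisy. Median signals of the non-control probe sets were 46.8 to 50.9.

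Log2 of the deposited intensities of 22746 non-control probe sets (64 controls were left out) was compared between windows with limma 3.58.1 in R 4.3.3 (lmFit, eBayes with an intensity trend, two-sided). P-values were adjusted by Benjamini-Hochberg over the 13647 probe sets above the 40th percentile. Windows served as groups because each time point has 1 array. The cycle comparison used the interaction of window and cycle. Alternatives changed the scaling, an offset of 16, the filter, the variance model, the terms of the fit and the arrays included.

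The platform annotation gave 1 gene to 13513 probe sets, several to 503 and none to 8730, and the gene table of assembly TAIR10.1 matched 13436 of the 13513. Loci were represented by their brightest probe set.

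Named genes were, on each side, the 12 largest called differences without overlap and with a high-side mean signal of at least 100. To these came all tested members of the core lists, and up to 4 called members of other lists. All called genes with a symbol, and the families of the called genes, were added after values were seen. The members and gene lists were chosen with earlier results of these data known. A planned comparison of promoter motifs was not run.

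On simulated data with 13647 probe sets, 25% of 100 differences of 0.5 and 83% of 100 differences of 1 (log2) were recovered for late cycle minus morning. The simulated scatter was normal and independent between probe sets and arrays, and fewer probe sets were changed than were called in the data. Recovery in the real arrays can therefore differ. Figures were drawn with matplotlib 3.10.9.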

Additional observations from a re-analysis of the deposited data

Results flagged for a closer look

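Within the 4 late-cycle or 5 morning arrays, 19 of 288 groups of values of the named genes held 1 array that stood apart from the others by Dixon's test. Chance alone flags about 1 in 20 groups. Among called genes, these were AT1G06000 at hour 46 (437.4), NdhN at hour 50 (334), THX at hour 26 (593.3), WLIM2b at hour 66 (514.2), GLX2-5 at hour 50 (199.5), ACLA-3 at hour 66 (148.5), BUG22 at hour 26 (180) and CKS at hour 66 (160) and hour 74 (221.4). The hour 50 array of NdhN was the highest of its morning arrays and still below all late ones. Hour 66 of WLIM2b and CKS was the late array nearest the morning level.

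Photosystem genes made up another 6 of these values, none of them in a called gene. They were psbB at hour 30 (204.4), psbK at hour 70 (2168) and hour 74 (1231), psbH at hour 70 (1279), psaC at hour 26 (600.9) and psbM at hour 26 (2002). The last 4 were GSA1 at hour 66 (410.8), COR15B at hour 46 (132.1), the reference gene AT4G26410 at hour 50 (372.1) and the root marker EXPA18 at hour 70 (52.16).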

How the results depend on the processing

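Without moderation of the variances, 56 late and 50 morning calls were made, and with each of the 6 times of day as a group 855 and 740. Without hours 26 and 74 there were 417 morning calls. With 1 array left out, late calls numbered 38 to 392 and morning calls 46 to 369. The lowest counts came without hour 66, when all 84 calls were among the 620. The other alternatives stayed within 1.5 times the main counts, though median centring turned the larger side (251 late, 270 morning), and in no alternative did a call of the main comparison change its sign. Of the 82 named genes that were called, 7 were called in every alternative (NdhN, Cpn60beta4, TIL, AT2G32150, AT5G03230, AT5G12050 and AT1G01240). The cause of these changes was not tested. The replicate number pairs no arrays, since it is the same for all. Blocking by cycle, on 8 arrays, gave 304 late and 282 morning calls, of which 431 were among the 620, and ended the calls of 21 named genes. Dim probe sets and differences near 0.5 (log2) are the limit of 9 arrays.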

Other observations

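Over all loci, 2.19% were called on the late side and 1.8% on the morning side. Of 23 tested glycosyltransferases with a UGT symbol 0 were called, with 16 positive differences and a median of 0.08. In the fit by time of day 5 of them were called. Loci that the gene table lists by number only were not in that list, so calls among unnamed members would be missed. Of 11 beta-glucosidases 0 were called, with 8 negative differences and a median of -0.21, and 3 were called in the fit by time of day. Of 16 genes of vesicle transport 0 were called, with 11 negative differences and a median of -0.11. The lists of tubulins (7 tested), glutathione transferases (8), auxin genes (3) and splicing factors (3) gave 0 calls. In the fit by time of day 2 tubulins and 1 auxin gene were called, and 0 of the vesicle, glutathione transferase and splicing lists. These lists do not hold WES1, the called auxin-joining enzyme, or CAF1, the called chloroplast splicing factor, both given above. The 11 tested genes of cellulose synthesis and family 9 hydrolases gave 1 call on the late side, CSLA01, and the 5 XTH genes 1, XTH20.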
